A study of Mus musculus with 14 samples.

Results

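The chaperonin CCT, also called TRiC, is a cytosolic protein-folding machine made of 8 related subunits. In mouse these are encoded by Tcp1 (CCT alpha), Cct2 (beta), Cct3 (gamma), Cct4 (delta), Cct5 (epsilon), Cct6a (zeta), Cct7 (eta) and Cct8 (theta). These 8 genes were chosen by symbol, without use of their values, among the 55487 genes counted. All 8 were counted in each of 14 RNA-seq libraries, and all 8 passed the filter on low counts in every comparison.

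The libraries came from 3 mouse populations. LSK cells (Lin- Sca1+ c-kit+) are the marrow fraction that holds the hematopoietic stem cells, and LK cells (Lin- c-kit+, labelled MP(LK)) are the more mature myeloid progenitors. Both were sorted from C57BL/6 mice of the genotype Mx1Cre; Jak2 VF/+, which carry 1 Jak2 mutant knock-in allele of myeloproliferative neoplasm, so the PBS controls carry the mutation too. Mice had received PBS (3 libraries of each population) or IL-1β (2 libraries of each), 0.5 μg per dose in 3 intraperitoneal doses a week for 16 weeks, and the labels give no age. The Mx1 promoter that drives Cre answers to interferon, the IL-1β cohort of the study was set up by transplanting induced Jak2 mutant marrow into irradiated recipients, and gene counts cannot show the mutant allele. Mesenchymal stromal cells (MSC) were grown for 21 days from marrow of C57BL/6 mice and given PBS (2 libraries) or IL-1β at 5 ng/ml (2 libraries) for 72 h. The labels do not say whether each library came from a separate mouse or culture, so the p-values measure the spread between libraries.

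CCT forms a pair of rings stacked back to back, each with 1 copy of every subunit in a fixed order, and folds proteins inside its closed cavity using ATP. Its best-known clients are actin and the tubulins, and it also folds WD-repeat proteins such as the mitotic activator Cdc20. Prefoldin hands it unfolded clients and phosducin-like proteins assist it. Because a ring needs every subunit, the question for the gene set is how closely the 8 transcripts keep to one another across populations and under IL-1β.

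Totals per library ran from 4393233 to 30871055 counts. In both sorted populations, the IL-1β libraries were shallower than every PBS library (LSK: 4393233 and 8641124 against 12172400 or more). The lowest count of any subunit in any library was 774, and counting error was not set against the spread between libraries. LSK PBS replicate 2 stood apart from the other LSK PBS libraries (chi-square per gene 109 and 112, against 36.8 between the others). LK PBS replicate 1 did so among the LK PBS libraries (81.8 and 69.5, against 34.4). The subunit tests of IL-1β in each population and of LSK against LK under PBS are also given without them. Correlations, shares and counts of groups that do not overlap use all libraries. In the marker lists, the LSK and LK labels were met by the stem and progenitor list, whose summed level was 2109 to 2758 CPM (counts scaled to library size with TMM factors) in LSK PBS libraries and 1120 to 1380 in LK PBS libraries. The MSC cultures carried a summed macrophage list of 14435 to 36170 CPM, above their summed mesenchymal list of 1555 to 4529 CPM. Of the 13 mesenchymal genes, only Lepr and Nt5e had at most 3 counts in every MSC PBS library. None did so in the IL-1β libraries, but the means there were still only 0.35 CPM for Lepr and 0.89 CPM for Nt5e. Lum was also low, with means of 2.08 CPM under PBS and 2.19 CPM under IL-1β. Other stromal genes were present, with PBS and IL-1β means of 610 and 1199 CPM for Col1a1 and 66.8 and 68.9 CPM for Prrx1. Cxcl12 had means of 188 and 279 CPM, but its PBS cultures differed widely (SD 166 CPM).

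The 8 genes lie on 8 chromosomes (GRCm38, exon positions as deposited): Tcp1 at chr17:12915701-12925067 (+), Cct2 at chr10:117051001-117063814 (-), Cct3 at chr3:88297116-88321767 (+), Cct4 at chr11:22990519-23003780 (+), Cct5 at chr15:31590800-31601804 (-), Cct6a at chr5:129786998-129846371 (+), Cct7 at chr6:85451514-85468475 (+) and Cct8 at chr16:87483326-87495873 (-). A position that the rule did not use was shared by 5 of them. Tcp1, Cct3, Cct5, Cct6a and Cct7 each had a protein-coding gene on the opposite strand in head-to-head orientation, with starts at most 1000 bases apart, and the annotated genes may overlap at their starts. The same held for 10.8% of 21897 protein-coding genes. The neighbours were Mrpl18 (mitochondrial ribosomal protein, 644 bases from the start of Tcp1), Tsacc (117 bases from Cct3), Fam173b (48 bases from Cct5), Psph (phosphoserine phosphatase, 451 bases from Cct6a) and Pradc1 (456 bases from Cct7).

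The DNA before the starts of 4 subunit genes is printed 5′ to 3′ on the gene's own strand, because it holds the motifs counted in the promoter windows. The Cct3 stretch is the whole gap between Cct3 and Tsacc. The sequences are those of RefSeq promoter windows (GRCm38.p6), cut to the longest run without an exon of GENCODE M21. Capitals mark CCAAT and GGGCGG on either strand (ATTGG and CCGCCC on the other strand).
Cct2, chr10:117063853-117064102 (-), 250 bases: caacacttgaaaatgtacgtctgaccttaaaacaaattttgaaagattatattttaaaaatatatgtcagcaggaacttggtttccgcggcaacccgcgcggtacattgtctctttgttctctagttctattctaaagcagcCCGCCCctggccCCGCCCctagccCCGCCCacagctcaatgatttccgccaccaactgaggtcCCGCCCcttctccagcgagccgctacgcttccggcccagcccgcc
Cct3, chr3:88297000-88297115 (+), 116 bases: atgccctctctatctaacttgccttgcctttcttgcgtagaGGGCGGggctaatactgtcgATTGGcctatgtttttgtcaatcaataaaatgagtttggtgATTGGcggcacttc
Cct7, chr6:85451284-85451504 (+), 221 bases: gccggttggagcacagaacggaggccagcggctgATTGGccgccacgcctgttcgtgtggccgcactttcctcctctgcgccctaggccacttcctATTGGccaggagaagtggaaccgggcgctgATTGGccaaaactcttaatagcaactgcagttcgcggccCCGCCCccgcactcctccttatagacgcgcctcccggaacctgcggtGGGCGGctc
Cct8, chr16:87495874-87495998 (-), 125 bases: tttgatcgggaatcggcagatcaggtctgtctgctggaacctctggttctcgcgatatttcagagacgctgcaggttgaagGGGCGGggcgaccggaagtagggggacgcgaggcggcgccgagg

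The Cct2 stretch held 4 copies of GGGCGG and no CCAAT, and the Cct7 stretch held 3 copies of CCAAT and 2 of GGGCGG. A promoter window was at hand for 7 of the 8 genes, and Cct4 is named only. In the 250 bases before the start, GGGCGG was found in 7 of 7 windows against 32.7% of 32851 windows over all genes. CCAAT was found in 4 of 7 (Tcp1, Cct3, Cct6a and Cct7) against 33.8% of all windows. TATAAA was found in 0 of 7 (12.4% of all windows), the E-box CACGTG in 0 of 7 (6.02%) and GAANNTTC, the core repeat of heat shock elements, in 0 of 7 (6.69%). Both strands were searched, GGGCGG can lie within longer GC runs, and a match is a description of letters and not a bound site.

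Within a library the highest of the 8 transcripts was 2.56 to 3.75 times the lowest, with the exon length of the deposited tables. Levels between genes were compared as TPM, which divides counts by gene length and then by their sum in the library, and each subunit was then set as a share of the summed TPM of the 8. With the exon length of the deposited tables, Cct2 held the largest mean share, 20.2% ± 1.4 in LSK (SD, n = 5 libraries), 20.1% ± 0.47 in LK (n = 5) and 22.5% ± 1.4 in MSC (n = 4). Cct2 ranked first in 13 of 14 libraries and Cct7 last in 9 of 14. The order over all libraries was Cct2, Cct5, Cct8, Tcp1, Cct6a, Cct4, Cct3 and Cct7. Neighbours in that order were not all distinct: Cct6a lay above Cct4 in 8 of 14 libraries and Cct3 above Cct7 in 9 of 14, whereas Cct8 lay above Tcp1 in 14 of 14.

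That order rests on the length used. The deposited length joins every annotated exon, which gives Cct3 6370 bases and Cct7 6778 bases, against 1977 and 2441 bases for 1 reference transcript. With 1 reference transcript per gene, an alternative chosen after seeing the data, Cct5 ranked first in 10 of 14 libraries and Cct6a last in 9 of 14, and Cct3 moved to a mean share of 14.1% ± 0.7 in LSK. The ratio of the highest to the lowest subunit in LSK PBS libraries was 3.24 with the deposited length and 2.28 with the reference transcript. Cct5 lay among the top 3 on both scales, and Cct4 and Cct6a lay below the even share of the 8 on both in every population.

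**Figure D1:**
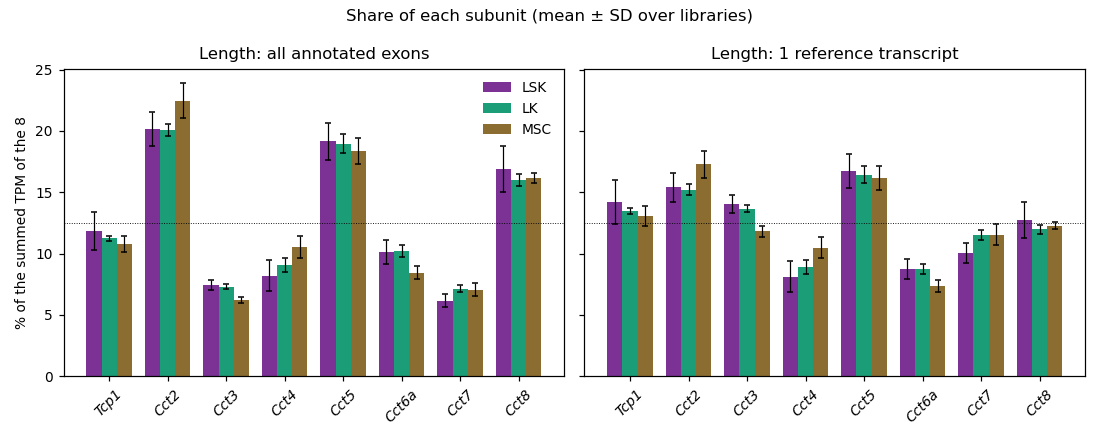
Bars give the mean share of each subunit in the summed TPM of the 8 genes (y axis, percent) in LSK (5 libraries), LK (5) and MSC (4), with SD over libraries; the left panel uses the length of all annotated exons and the right panel 1 reference transcript. Cct2 leads on the left at 20.1 to 22.5%, Cct3 and Cct7 stand higher on the right, and the dotted line marks an even share.

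The summed TPM of the 8 genes was 3299 to 3563 in LSK PBS libraries, 4061 to 4469 in LSK IL-1β libraries and 978 to 1190 over the 4 MSC libraries. LK libraries lay at 4092 to 4569 except LK PBS replicate 1, at 2778. In that library, genes shorter than 300 bases took 36.4% of all TPM, against 2.26% and 2.46% in the other LK PBS libraries, and its share of all counts in the 8 genes, 0.522%, was within the range of the other LK libraries. As shares of all counts, the 8 genes together took 0.361 to 0.45% in LSK PBS, 0.51 to 0.632% in LSK IL-1β, 0.488 to 0.545% in LK and 0.121 to 0.148% in MSC. The MSC tables were counted apart from cultured cells of another source, so these levels stand side by side with no test.

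Among the CCT-like genes that serve outside this complex, Cct6b, the testis form of the zeta subunit, stayed below 1 CPM on average in every group, and Cct8l1 had a mean of 0 CPM in every group. Bbs10, Bbs12 and Mkks, chaperonin-like proteins of the ciliary BBSome pathway, had group means of 2.38 to 14.1 CPM, far under the subunits.

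In LSK cells, all 8 subunits had higher fitted levels after IL-1β, by 1.34-fold (Cct4) to 1.91-fold (Cct8), and none passed the test. Passing the test means a Benjamini-Hochberg adjusted p under 0.05 over all 13132 genes tested by edgeR's quasi-likelihood test, together with a log2 fold change beyond 0.5 in size. Of all genes tested, 0.32% passed as higher and 0.312% as lower. For the 8 subunits the median log2 fold change was 0.60, against -0.06 for all genes. An unadjusted p under 0.05 was found for 5 of 8, against 2431 of the 13132 genes tested. DESeq2's Wald test passed 1, Cct8.

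Cct8 had 436, 618 and 437 CPM in LSK PBS replicates 1, 2 and 3 and 806 and 1048 CPM in the IL-1β replicates. Both IL-1β libraries lay above all PBS libraries, and the log2 fold change was 0.93 ± 0.28 (SE), with an edgeR adjusted p of 0.141. Cct6a had 296, 465 and 322 CPM under PBS and 526 and 735 CPM under IL-1β, a log2 fold change of 0.84 ± 0.29 (edgeR adjusted p = 0.189). Its groups did not overlap either. Cct3 had 397, 584 and 447 CPM under PBS and 664 and 924 CPM under IL-1β, a log2 fold change of 0.77 ± 0.28 (edgeR adjusted p = 0.201), again without overlap. The CCT3, CCT6 and CCT8 proteins sit next to one another in the ring, but whether their 3 genes differed more than the other subunits was not tested, and their standard errors overlap those of the rest.

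Cct2 had 491, 566 and 544 CPM under PBS and 693 and 909 CPM under IL-1β, with a log2 fold change of 0.62 ± 0.25. Cct5 had 484, 609 and 576 CPM under PBS and 754 and 854 CPM under IL-1β, with a log2 fold change of 0.57 ± 0.25. Tcp1, the founding member of the family, had 484, 864 and 543 CPM under PBS and 880.5 and 957 CPM under IL-1β, with a log2 fold change of 0.58 ± 0.31. In all 3 genes the groups did not overlap, though in Tcp1 PBS replicate 2 lay just under IL-1β replicate 1.

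The groups overlapped in the last pair of subunits. Cct4 had 349.5, 381 and 399 CPM under PBS and 393 and 590.4 CPM under IL-1β, and Cct7 had 395, 529.9 and 400.2 CPM under PBS and 503 and 792 CPM under IL-1β. Their log2 fold changes were 0.42 ± 0.26 and 0.58 ± 0.29. In each of the 8 genes, IL-1β replicate 2, the shallowest library at 4393233 counts, was the highest LSK library. Thus 6 of 8 subunits had both IL-1β libraries above all PBS libraries, against 16.7% of all genes tested.

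**Figure D2:**
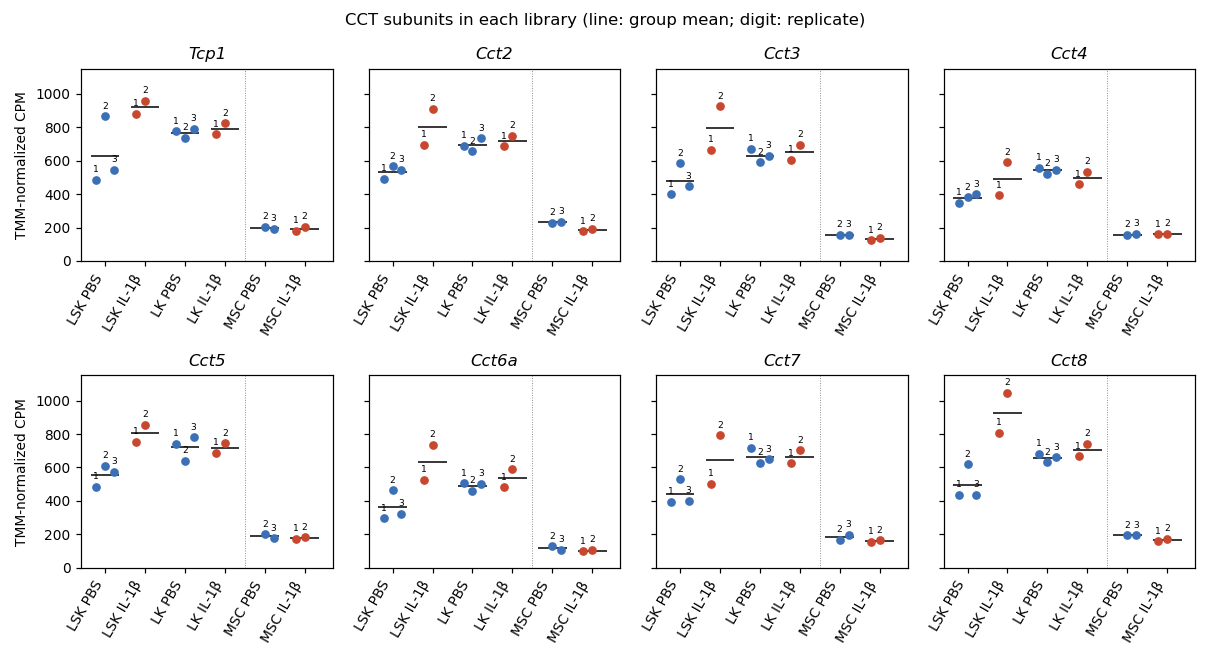
Each panel shows 1 subunit, with CPM after TMM scaling on the y axis, 1 point per library (PBS blue, IL-1β red, digit for the replicate) and a line at the group mean; MSC libraries, right of the dotted line, were scaled apart. In LSK, IL-1β replicate 2 is the highest library in every panel and PBS replicate 2 is the highest PBS library in all panels but Cct4.

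Without LSK PBS replicate 2, the median log2 fold change of the 8 was 0.84 and Cct8 passed, at 1.16 ± 0.23 (edgeR adjusted p = 0.0478). The share of all genes passing in that fit is not given here. When all 10 sorted-cell libraries were fitted at once, with 1 common estimate of the spread, Cct3, Cct6a and Cct8 passed, at log2 fold changes of 0.74, 0.80 and 0.90 (edgeR adjusted p = 0.0479, 0.0443 and 0.022). Over the alternative settings that kept every library, this fit and DESeq2 among them, 42 to 547 of all genes passed as higher. The share of all genes passing under the reported setting therefore does not apply to calls from these fits. Without IL-1β replicate 2, the median of the 8 was 0.53, none passed, Cct4 had a log2 fold change of 0.13, Cct7 of 0.26 and Cct3 of 0.55, and the edgeR adjusted p ran from 0.611 (Cct8) to 0.917 (Cct4). Replicate 2 of the PBS libraries also carried the highest Hspa1a level, a heat-shock-induced Hsp70, at 48.2 CPM in LSK against 3.71 and 9.2 CPM in the other PBS libraries, and 2.01 and 1.47 CPM in IL-1β replicates 1 and 2. Dnajb1, another heat-shock target, did not separate that library, at 124 CPM against 117 and 105 CPM.

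Other markers moved with IL-1β in the LSK libraries. The 12 neutrophil granule genes summed to 2182 to 3171 CPM under PBS and 9763 to 11623 CPM under IL-1β, with 4 of 10 tested members passing as higher and Ly6g at 0 to 3 counts throughout. The stem and progenitor list summed to 2109 to 2758 CPM under PBS and 1631 to 1897 CPM under IL-1β, with 1 of 7 passing as lower. The lymphoid list summed to 102 to 354 CPM under PBS and 3.43 to 8.09 CPM under IL-1β, with 1 of 2 tested members passing as lower. In sorted bulk cells, more cells of a kind and more RNA per cell cannot be told apart, and the part of these markers and of depth in the subunit values was not tested.

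In LK cells no subunit passed between IL-1β and PBS. Fitted log2 fold changes ran from -0.13 (Cct4) to 0.13 (Cct6a) with a median of 0.04, and standard errors were 0.10 to 0.12. No subunit had an unadjusted p under 0.05, against 3176 of the 12835 genes tested, and DESeq2 passed 0. Of 12835 genes tested, 6.77% passed as higher and 2.57% as lower. Cct8 had 681, 631 and 662 CPM under PBS and 667 and 742 CPM under IL-1β, so that the groups overlapped. Cct4 had 557.5, 519.5 and 546 CPM under PBS and 459 and 532 CPM under IL-1β. Without LK PBS replicate 1 the median was 0.06 and again none passed. No subunit had groups apart in LK, whereas 23.4% of all genes tested lay wholly higher under IL-1β. In these LK libraries the neutrophil granule list summed to 4441 to 9609 CPM under PBS and 18297 to 21424 CPM under IL-1β, with 7 of 11 tested members passing, and the erythroid list lay at 4605 to 6155 CPM under PBS and 2955 to 3304 CPM under IL-1β, with 4 of 8 passing as lower.

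In the MSC cultures 7 of 8 subunits had lower fitted values under IL-1β, and none passed. Of 13239 genes tested, 7.14% (945) passed as higher and 4.31% (570) as lower, and upper-quartile factors gave 817 and 831. The median log2 fold change of the 8 was -0.21, against 0.00 for all genes. An unadjusted p under 0.05 was found for 2 of 8, against 3968 of the 13239 genes tested, and DESeq2 passed 0. Cct2 had 228 and 235 CPM under PBS and 176 and 194 CPM under IL-1β, a log2 fold change of -0.33 ± 0.11 (edgeR adjusted p = 0.103). Cct3 had 157 and 156 CPM under PBS and 123 and 138 CPM under IL-1β, a log2 fold change of -0.26 ± 0.11. Cct8 had 195 and 195 CPM under PBS and 159.5 and 173 CPM under IL-1β, a log2 fold change of -0.23 ± 0.10. Cct4 had 155 and 161 CPM under PBS and 159 and 162 CPM under IL-1β, with groups that overlapped.

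Cct2, Cct3, Cct6a, Cct7 and Cct8 had both IL-1β cultures below both PBS cultures, and 29.8% of all genes tested did so. Tcp1, Cct4 and Cct5 had fitted log2 fold changes of -0.03, 0.02 and -0.08. The fitted sizes were all under the 0.5 that the test requires. In the same cultures the macrophage list summed to 14435 to 18499 CPM under PBS and 35214 to 36170 CPM under IL-1β, with 7 of 13 members passing as higher, and its part in the subunit values was not tested.

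**Figure D3:**
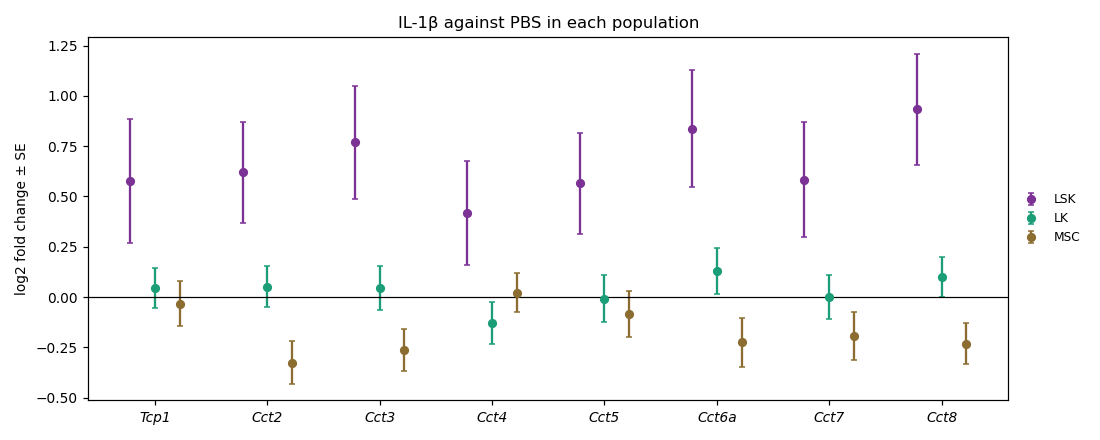
Points give the log2 fold change of IL-1β against PBS with its standard error for each subunit in LSK, LK and MSC, each from its own fit. All 8 LSK points lie between 0.42 and 0.93, LK points lie within 0.13 of 0, and 7 of 8 MSC points lie below 0; no point passed the test.

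Under PBS, all 8 subunits had lower fitted levels in LSK than in LK cells, and Cct4 and Cct7 passed. Both populations were fitted together with the IL-1β libraries. Of 13839 genes tested, 19.4% passed as higher in LSK and 12.4% as lower, so 2 of 8 subunits stands beside 12.4%. Cct4 had 349.5, 381 and 399 CPM in LSK and 557.5, 519.5 and 546 CPM in LK, a log2 fold change of -0.52 ± 0.17 (edgeR adjusted p = 0.035). Cct7 had 395, 529.9 and 400.2 CPM in LSK and 718, 626 and 650 CPM in LK, a log2 fold change of -0.59 ± 0.20 (edgeR adjusted p = 0.0368). In both genes every LSK library lay below every LK library. The other 6 had log2 fold changes of -0.28 (Tcp1) to -0.44 (Cct6a), and the median of the 8 was -0.40, against 0.09 for all genes.

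Single libraries decided these calls. Without LSK PBS replicate 2, Tcp1, Cct3, Cct4, Cct6a, Cct7 and Cct8 passed as lower in LSK, from -0.53 to -0.74. Over the fits that left out 1 PBS library, 1064 to 1836 of all genes passed as lower, against 1716 with all libraries. Without LSK PBS replicate 1, or without any 1 of the 3 LK PBS replicates, 0 passed, and without LSK PBS replicate 3 only Cct4 did, at -0.57. All of these fits kept the direction of the 8 genes. Only Tcp1 and Cct6a had overlapping groups, so 6 of 8 subunits lay wholly lower in LSK, against 21.8% of all genes tested. The erythroid list stood at 858 to 1004 CPM in LSK PBS and 4605 to 6155 CPM in LK PBS libraries, with 8 of 8 members passing as lower in LSK, and its part was not tested.

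Under IL-1β, none of the 8 passed between LSK and LK. Fitted log2 fold changes ran from -0.04 (Cct7) to 0.40 (Cct8) with standard errors of 0.19 to 0.25. An unadjusted p under 0.05 was found for 0 of 8, against 3015 of the 13839 genes tested, and DESeq2 passed 0. Cct8 had 806 and 1048 CPM in LSK and 667 and 742 CPM in LK, and Cct4 had 393 and 590.4 CPM in LSK and 459 and 532 CPM in LK. Of all genes tested 2.13% (295) passed as higher in LSK and 2.27% (314) as lower, and upper-quartile factors gave 394 and 247. Tcp1, Cct5 and Cct8, 3 of the 8, had both LSK libraries above both LK libraries, against 27.1% of all genes tested.

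The difference between the LSK and the LK response was tested as an interaction. It was positive for all 8, from 0.50 ± 0.32 (Tcp1) to 0.80 ± 0.29 (Cct8) on the log2 scale, with a median of 0.55 against -0.12 for all genes. None of the 8 passed (edgeR adjusted p = 0.259 to 0.5), and DESeq2 passed 0. An unadjusted p under 0.05 was found for 2 of 8, against 1967 of the 13839 genes tested. Only 0.00723% of all genes passed as positive and 0.0217% as negative. Without LSK PBS replicate 2, Cct8 passed at 0.99 ± 0.22 (edgeR adjusted p = 0.0493), and the share of all genes passing in that fit is not given here. These contrasts share libraries with the treatment and population comparisons and are not independent of them.

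**Figure D4:**
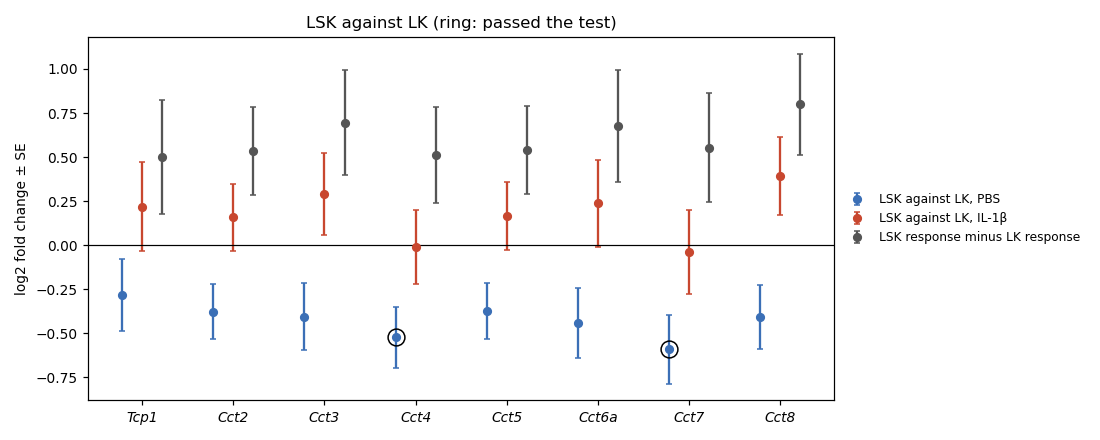
Points give log2 fold changes with standard errors from the fit of 10 libraries: LSK against LK under PBS (blue), under IL-1β (red) and the LSK response minus the LK response (grey), with a ring around points that passed. All blue points lie below 0 and all grey points above 0, and only Cct4 and Cct7 under PBS carry a ring.

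Over the 10 LSK and LK libraries the 8 transcripts moved together. As a description over libraries that share sorts, mice or depth, Pearson r between log2 CPM values of 28 pairs had a median of 0.90, from 0.56 (Tcp1 and Cct4) to 0.99 (Cct3 and Cct6a). In every comparison the fitted changes of the 8 lay closer together than those of all genes. Their SD was 0.17 in LSK against 1.15 for all genes, which include many at low counts, and 0.08 in LK against 0.82. The 3 tested CCT-like genes outside the complex had SDs of 0.07 in LSK and 0.04 in LK. Prefoldin had 0.49 and 0.14, and the phosducin-like cofactors had 0.19 and 0.23. In LSK and LK, closeness of the fitted changes was thus not particular to the 8 subunits. In MSC the 8 had an SD of 0.12, prefoldin 0.12, the phosducin-like cofactors 0.10 and the CCT-like genes 0.40. Between LSK and LK the CCT-like genes spread more widely than the 8, with SDs of 0.58 against 0.095 under PBS and 0.62 against 0.145 under IL-1β. For the difference between the LSK and LK responses the SDs were 0.10 and 0.11.

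The 5 other genes whose log2 CPM was most like the mean of the 8, by Pearson r over the same 10 libraries among 13831 genes, were Npm3 (r = 0.984), Psmd6 (0.980), Fkbp4 (0.979), Psmc4 (0.979) and Erp29 (0.978). Npm3 is a nucleoplasmin-family histone chaperone, Psmd6 and Psmc4 are subunits of the proteasome's regulatory particle, Fkbp4 is an Hsp90 co-chaperone and Erp29 an endoplasmic reticulum chaperone. Npm3 ran from 71.3 CPM in LSK PBS replicate 1 to 324 CPM in LSK IL-1β replicate 2. Of all genes compared, 3.76% had an r above 0.8.

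Prefoldin, the hexamer that delivers nascent actin and tubulin to CCT, had 6 of 6 subunits tested. In LSK cells under IL-1β its median log2 fold change was 0.69 and 0 of 6 passed. The largest was that of Pfdn6, with means of 64.0 CPM under PBS and 140 CPM under IL-1β (log2 fold change 1.16, edgeR adjusted p = 0.0965). In LK cells 0 of 6 passed. In the MSC cultures all 6 had lower fitted values and Pfdn2 (-0.65), Pfdn5 (-0.61) and Pfdn6 (-0.54) fell. Between LSK and LK under PBS, Pfdn1 (-1.24), Pfdn2 (-0.58) and Pfdn6 (-0.71) were lower in LSK, 3 of 6, beside the 12.4% of all genes.

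The phosducin-like cofactors Pdcl, Pdcl3 and Txndc9, which bind CCT with its clients, passed in 0 of 3 tested in each of the 6 comparisons, and Pdcl2, with a mean of 0 CPM in every group, was not tested. Their median log2 fold change was 0.37 in LSK, 0.08 in LK and -0.25 in MSC. The tubulin folding cofactors, which take tubulin from CCT to build the alpha-beta dimer, had 5 of 5 tested. In LSK 0 passed, with Tbcb at 34.95 CPM under PBS and 76.2 CPM under IL-1β (log2 fold change 1.16, edgeR adjusted p = 0.112). In MSC Tbca (-0.94) and Tbcc (-0.76) fell. Tbce was lower in LSK than in LK under PBS (-0.97).

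The clients did not move as 1 group. Of the 15 actin and tubulin genes, 13 were tested in LSK and 0 passed under IL-1β. Actb was at 1906 CPM under PBS and 2024 CPM under IL-1β, and Tubb5, the main beta-tubulin here, at 1616 and 1664 CPM. In LK cells Tuba4a (0.84), Tuba8 (16.3 CPM under PBS, 45.7 CPM under IL-1β) and Tubb6 (1.62) rose and Tubb2a fell (-1.05). In MSC cultures Actg1 (-0.56), Tuba1b (-0.76), Tubb2a (-1.05) and Tubb2b (-1.09) fell. Under PBS, Tuba1b (-0.59), Tubb2a (-1.81), Tubb3 (-2.88) and Tubb4b (-0.97) were lower in LSK than in LK and Tuba8 (1.53) was higher. Tubulin genes are close relatives, and shared reads between them make single values less certain. Of the 6 WD-repeat clients, Cdc20 (-1.02) and Gnb4 (-1.10), a G-protein beta subunit, fell in MSC and 0 of 6 passed in each of the other 5 comparisons. Cdc20 had means of 171 CPM under PBS and 262 CPM under IL-1β in LSK (log2 fold change 0.65, edgeR adjusted p = 0.217).

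The mitochondrial chaperonin, a separate folding ring of Hspd1 (Hsp60) with its lid Hspe1 (Hsp10), was lower in LSK than in LK under PBS in both genes. Hspd1 had means of 684 CPM in LSK and 1417 CPM in LK (log2 fold change -1.05, edgeR adjusted p = 0.000673), and Hspe1 had 133 and 347 CPM (-1.39, edgeR adjusted p = 0.00108). In LSK under IL-1β their means were 1207 and 265 CPM, with log2 fold changes of 0.85 and 1.03 that did not pass. Hspe1 fell in MSC (-0.76).

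Of the 13 cytosolic heat shock chaperones, 0 passed in LSK under IL-1β, with a median log2 fold change of 0.11, and Hspa8, the constitutive Hsp70, had means of 2666 CPM under PBS and 2189 CPM under IL-1β. Dnajb1 (-0.72) and Bag2 (-0.59) fell in LK, and 0 of 13 passed in MSC. Bag2 was lower in LSK than in LK under PBS (-1.63) and under IL-1β (-0.98). Hsf1, the transcription factor of the heat shock response, and Hsf2 passed in none of the 6 comparisons. Myc, a transcription factor of growth and proliferation, had means of 337 CPM under PBS and 281 CPM under IL-1β in LSK and fell only in MSC (-0.97), to 10.5 CPM from 20.5 CPM.

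Among the 5 opposite-strand neighbours, Mrpl18 (-0.76, edgeR adjusted p = 0.0194) and Pradc1 (-0.90, edgeR adjusted p = 0.0113), the neighbours of Tcp1 and Cct7, were lower in LSK than in LK under PBS. That is 2 of 5, beside 12.4% of all genes tested, and Cct7 itself passed there whereas Tcp1 did not. None of the 5 neighbours passed in the other 5 comparisons. In LSK, Mrpl18 had means of 81.9 CPM under PBS and 147 CPM under IL-1β (log2 fold change 0.87, edgeR adjusted p = 0.196). Psph, beside Cct6a, had a log2 fold change of 0.24, Fam173b, beside Cct5, -0.06, and Tsacc, beside Cct3, had group means of 0.524 to 1.57 CPM. Exons of Mrpl18 and Acat3 overlap those of Tcp1 on the opposite strand by 712 bases, those of Psph overlap Cct6a by 452, Pradc1 overlaps Cct7 by 214 and Usp16 overlaps Cct8 by 192. Counting used strand according to the file headers. On the same strand, Gm26130 overlaps Tcp1 by 138 bases and the small nucleolar RNA Snora15 overlaps Cct6a by 102, so reads there cannot be given to 1 gene.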

How the data were processed

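Total RNA from sorted LSK and LK cells and from MSC cultures was depleted of ribosomal RNA and sequenced. The authors deposited raw counts per gene, 1 table per population, made per the file headers with strand-aware paired-end featureCounts on GRCm38 with the Ensembl gene annotation. The submitters' processing notes name fastp 0.20.0, HISAT2 2.0.1, SAMtools 1.10 and featureCounts 2.0.2, whereas the methods of the study name GenomicAlignments. Of 55487 gene identifiers, 55141 matched a symbol, and 0 sample columns were left unmapped.

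Counts were tested with edgeR 4.0.16 (filterByExpr, TMM factors, robust quasi-likelihood fit) in R 4.3.3, within each population for IL-1β against PBS and in 1 fit of 10 libraries with 4 groups for LSK against LK and for the interaction. Benjamini-Hochberg adjustment ran over all genes tested. The study's thresholds were kept: 0.05 for the adjusted p and, in size, 0.5 for the log2 fold change. DESeq2 1.42.0, other scaling factors, no filter, no fold threshold, other sample sets, a replicate block and leaving out each library were alternatives. The fitting script was tested on simulated data. No pair of libraries agreed within sampling noise (chi-square per gene 5.2 or more). TPM used the lengths in the deposited tables. CPM of LSK and LK libraries were scaled together and those of MSC apart.

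Deviations from group means had r = 0.211, 0.128 and 0.472 between LSK and LK PBS libraries of one number. Pairs of unlike number had r of -0.381 to 0.162, so the values overlap and do not settle a pairing. Under IL-1β, with 2 libraries a group, r was 0.1 in size for like and unlike numbers and cannot show pairing. A replicate block that takes the numbers to pair these populations was run as an alternative, and it changed no call of a subunit. The text names the 8 subunits, the genes of the context lists and the 5 genes most like the mean of the subunits by correlation. Opposite-strand neighbours were added from gene positions. The members, lists and tests were chosen with earlier results of these data known. The MSC PBS libraries carry the replicate numbers 2 and 3, and no other MSC PBS library was analysed here.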

Additional observations from a re-analysis of the deposited data

Results flagged for a closer look

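For 4 subunits the LSK and MSC libraries separated in opposite directions: both IL-1β libraries lay above all PBS libraries in LSK and below both PBS cultures in MSC. The log2 fold changes were 0.62 in LSK and -0.33 in MSC for Cct2, 0.77 and -0.26 for Cct3, 0.84 and -0.23 for Cct6a, and 0.93 and -0.23 for Cct8. Of all genes tested, 16.7% lay wholly higher under IL-1β in LSK and 29.8% wholly lower in MSC, and the share that did both was not counted. The difference between the LSK and MSC responses was not tested, because the tables were made from different cells, routes and times of exposure. None of these single changes passed its test. Dixon's criterion for a single outlying value was not applied, since every group had 2 or 3 libraries.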

How the results depend on the processing

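None of the results for which a subunit passed, or had a log2 fold change beyond 0.13 in size under the reported settings, changed direction except Cct2 and Cct6a between LSK and LK under IL-1β. In LSK under IL-1β, 1 subunit passed with DESeq2 and 3 passed in the joint fit of 10 libraries. Leaving out 1 library gave 0 to 1 passing in LSK and in the interaction, and 0 to 6 lower subunits between LSK and LK under PBS, where the median log2 fold change ran from -0.58 to -0.38. The interaction median ran from 0.44 to 0.84. The LSK median ran from 0.53 to 0.84. Where 1 library was left in a group, it was assumed to vary like the others. The MSC median was -0.28 with upper-quartile factors.

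Reversals, on the log2 scale, were these. In LK under IL-1β, DESeq2 and its size factors gave Cct5 0.0026 and 0.0025 and Cct7 0.00999 and 0.010017, and upper-quartile factors gave Cct3 -2.24e-06. Leaving out 1 library there gave Tcp1 -0.011 to 0.0913, Cct2 -0.0056 to 0.103, Cct3 -0.052 to 0.127, Cct5 -0.0861 to 0.059, Cct6a -0.016 to 0.252 and Cct7 -0.0819 to 0.071. In MSC, upper-quartile factors gave Cct4 -0.044 and no filter gave Tcp1 0.0083, and leaving out 1 library gave Tcp1 -0.130 to 0.061 and Cct5 -0.174 to 0.022. Between LSK and LK under IL-1β, upper-quartile factors gave Cct4 0.075 and Cct7 0.049, and leaving out 1 library gave Cct2 -0.041 to 0.276, Cct4 -0.324 to 0.189, Cct6a -0.014 to 0.395 and Cct7 -0.391 to 0.190. The causes were not tested.

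Between PBS and IL-1β libraries of one number, r was 0.126 and -0.035 in LSK and -0.102 and 0.033 in LK. Unlike numbers ran from -0.149 to 0.149 in LSK and from -0.0987 to 0.102 in LK. These values do not show pairing, so the replicate block there pairs numbers only. With it the median of the 8 was 0.62 in LSK and 0.06 in LK, Cct5 in LK was 0.056, no subunit passed, and the genes passing went from 42 higher and 41 lower to 314 and 388 in LSK and from 869 and 330 to 1462 and 869 in LK. With the block between LSK and LK under PBS, Cct4 was -0.52 and Cct7 -0.60. No paired analysis was possible in MSC because its groups share only 1 replicate number.

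The ratio of the highest to the lowest subunit in PBS libraries was 3.24 in LSK, 2.78 in LK and 3.69 in MSC with deposited lengths, 1.90, 1.57 and 1.95 in CPM without length, and 2.28, 1.95 and 2.45 with 1 reference transcript. Counts over all genes moved in every comparison. Leaving out 1 library gave 3 to 280 higher and 0 to 200 lower genes in LSK (42 and 41 with all libraries), 61 to 1499 and 5 to 910 in LK (869 and 330), 38 to 2038 and 0 to 1781 in MSC (945 and 570), 1677 to 2771 and 1064 to 1836 between LSK and LK under PBS (2678 and 1716), 20 to 191 and 69 to 276 under IL-1β (295 and 314), and 0 to 167 and 0 to 169 in the interaction (1 and 3). Other settings gave 42 to 547 and 41 to 681 in LSK, 421 to 1462 and 68 to 869 in LK, 817 to 1439 and 607 to 915 in MSC, 2345 to 2734 and 1635 to 2379 under PBS, 293 to 716 and 247 to 694 under IL-1β, and 1 to 170 and 2 to 228 in the interaction.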
